A study of Arabidopsis thaliana with 434 samples.

Results

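The xylem NACs followed here are 5 of the 49 NAC transcription factor genes counted in Arabidopsis thaliana leaves, chosen by locus. They are AT1G12260 (ANAC007, also VND4, on chromosome 1), AT4G36160 (ANAC076, VND2, chromosome 4), AT5G62380 (ANAC101, VND6, chromosome 5), AT1G28470 (ANAC010, SND3, chromosome 1) and AT5G64530 (ANAC104, XND1, chromosome 5). NanoString nCounter counting, in which a coloured barcode is counted for each captured transcript without amplification, was run on 434 leaf samples. The lines are 49 T-DNA insertion lines, each named after a NAC gene, taken from the SALK, SAIL and GABI-KAT collections, all with the ecotype Columbia (Col) as parent. Each line was sampled at leaf ages of 14, 18, 22 and 26 d with 2 samples per age, except anac092 with 4, and Col itself gave 10, 8, 8 and 8 samples at those ages. Only 1 line stands for each gene, so a line effect has no second allele behind it. The titles also carry a letter from A to D, whose meaning the labels do not give, and each line was set against Col of its own letter and age. Whether replicate samples are separate plants is not stated in the labels, and the p-values therefore measure only the spread between these samples.

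VND proteins are NAC activators that switch on the differentiation of xylem vessel cells, with their thickened secondary walls and programmed cell death, and VND6 is known for metaxylem vessels. SND3 belongs to the secondary wall programme downstream of the master switch SND1. XND1 acts the other way, since raising it blocks the formation of tracheary elements. In a leaf, vessels form in the veins while the blade develops, and the older leaf moves on to senescence, in which many NAC genes are known to rise.

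Values are normalised counts, the raw count divided by the mean of 4 references in the same sample (the actins ACT2 and ACT7, the tubulin TUB2 and the ubiquitin UBQ10) and put back on a common scale of 43036 counts. Changes are on the log2 scale from edgeR's quasi-likelihood test, called at a Benjamini-Hochberg adjusted p under 0.05. Total counts per sample ran between 31613 and 687229 with a median of 225519, and all 6 samples under 50000 were of 22 d. The background of a sample was taken as the mean of its 8 negative probes plus 2 SD, whose median over samples was 10.7 raw counts. ANAC104 was above it in every sample and ANAC007 in all but 2, whereas the other 3 came close to it after 14 d, so that few counts stand behind their later levels. Levels of different genes are not compared, because probes differ in efficiency.

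In wild-type leaves the activators of the xylem programme fell with age while the repressor XND1 rose late, its rise being called with the reference genes as scale and not with scales set by the NAC genes. ANAC007, ANAC101 and ANAC010 fell at 18, 22 and 26 d relative to 14 d, and ANAC104 rose at 26 d. This gave 10 calls among the 12 tests of the 4 genes that passed the filter on low counts, where 38.3%, 93.6% and 97.9% of all 47 genes tested were called in either direction at 18, 22 and 26 d. By direction, 12.8% were called lower at 18 d, 14.9% at 22 d and 14.9% at 26 d, against 25.5%, 78.7% and 83% called higher. The 3 activators tested were thus among the few genes that fell, and ANAC104 was among the many that rose. In bulk leaf RNA, fewer cells of a type and less RNA per cell cannot be told apart, and the probe set holds no marker of mesophyll or epidermis.

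**Figure D1:**
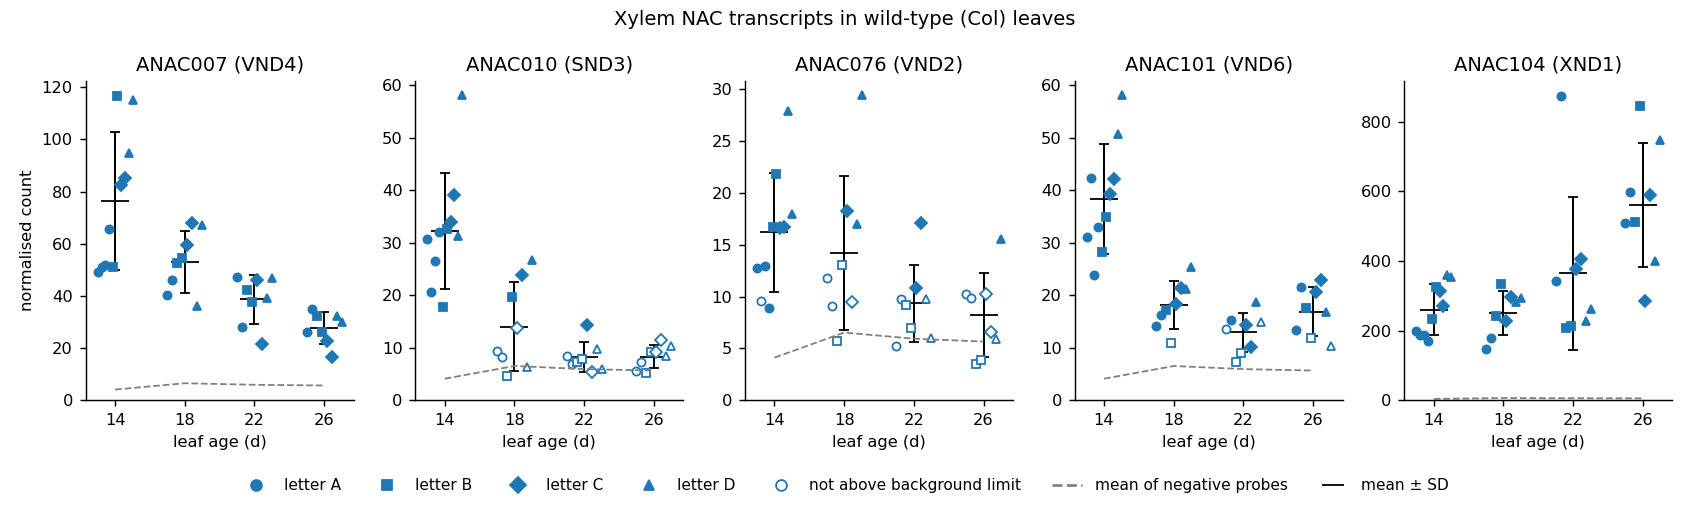
Normalised counts (y axis, linear, a scale per gene) of the 5 xylem NACs in each Col sample against leaf age in days (x axis). Marker shapes are the title letters, open markers lie at or under the sample's background limit, black bars are the mean and SD, and the dashed line is the mean of the negative probes. ANAC010 has 10 of 10 samples above the limit at 14 d and 0 of 8 at 26 d, while ANAC104 is highest on average at 26 d.

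ANAC007 (VND4) declined step by step. Its normalised counts at 14 d had a minimum of 49.0, a median of 74.0 and a maximum of 117, with 36.1, 53.5 and 67.9 at 18 d. The same 3 values were 21.7, 40.7 and 47.2 at 22 d, then 16.4, 28.0 and 35.1 at 26 d. The means with SD were 76.3 ± 26.5 (n = 10), 52.99 ± 11.7, 38.7 ± 9.36 and 27.6 ± 6.06 (n = 8 each) from 14 to 26 d. Ranges of neighbouring ages overlapped, whereas all 8 samples of 26 d lay below all 10 of 14 d. The log2 changes relative to 14 d were -0.59 (SE 0.16, adjusted p = 8.4e-04) at 18 d, -1.03 (adjusted p = 1.3e-09) at 22 d and -1.53 (SE 0.16, adjusted p = 4.5e-17) at 26 d. Every Col sample was above its background limit at each age.

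ANAC101 (VND6) fell early and then levelled off. The minimum, median and maximum were 23.9, 37.1 and 58.1 at 14 d and 10.9, 17.7 and 25.5 at 18 d. They were 7.36, 14.0 and 18.7 at 22 d and 10.4, 17.2 and 23.0 at 26 d. No sample of 26 d reached the lowest of 14 d, and 3 of the 8 samples of 26 d exceeded all samples of 22 d. The log2 changes were -1.11 (SE 0.19, adjusted p = 8.2e-08), -1.60 (SE 0.19, adjusted p = 2.7e-14) and -1.22 (SE 0.18, adjusted p = 4.1e-10) at 18, 22 and 26 d. Samples above the background limit numbered 10 of 10, 7 of 8, 4 of 8 and 6 of 8, so the later levels are close to the floor of the assay.

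ANAC010 (SND3) dropped to the background. At 14 d the minimum, median and maximum were 17.8, 31.7 and 58.1, with 4.57, 11.6 and 26.8 at 18 d. They were 5.43, 7.65 and 14.4 at 22 d, then 5.26, 8.80 and 11.5 at 26 d, where the negative probes averaged 5.67 on the same scale. Samples above the limit went down over the ages as 10 of 10, 3 of 8, 1 of 8 and 0 of 8. The log2 changes were -1.31 (SE 0.29, adjusted p = 3.3e-05), -1.96 (SE 0.30, adjusted p = 4.3e-10) and -2.002 (SE 0.30, adjusted p = 1.6e-10). Since the background stays in these counts, they understate the fall, and with the negative probes subtracted the mean was 2.66 ± 2.09 at 26 d (SD, n = 8) and 28.2 ± 11.49 at 14 d (SD, n = 10).

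ANAC076 (VND2) was under the filter, with a mean raw count over all samples below 12.6, and its values come from the fit without a filter. Its minimum, median and maximum were 8.87, 16.7 and 27.9 at 14 d, followed by 5.71, 12.5 and 29.5 at 18 d. Later they were 5.25, 9.49 and 17.1 (22 d), then 3.51, 8.24 and 15.6 (26 d). The ranges overlapped between all ages, with 4 of the 8 samples of 26 d below every sample of 14 d. In that fit the log2 changes were -0.35 (edgeR, adjusted p = 0.249) at 18 d, -0.88 (adjusted p = 2.9e-04) at 22 d and -1.09 (adjusted p = 9.8e-06) at 26 d. Samples above the limit numbered 9 of 10, 3 of 8, 2 of 8 and 1 of 8.

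ANAC104 (XND1) was measured well above background in all Col samples. Its minimum, median and maximum were 170.2, 251.7 and 359.5 at 14 d, followed by 147, 262 and 333 at 18 d. Later they were 208, 302 and 873 (22 d), then 285, 549.8 and 845 (26 d). At 26 d, 7 of 8 samples exceeded every sample of 14 d. The log2 changes were -0.15 (SE 0.21, adjusted p = 0.634), 0.31 (SE 0.21, adjusted p = 0.153) and 1.03 (SE 0.21, adjusted p = 2.7e-06). Over the 47 genes the median log2 change was 1.12 at 26 d, and ANAC104 differed from it by -0.091, at rank 22 from the lowest. The rise was not called under TMM scaling (0.17, adjusted p = 0.384) or with DESeq2 size factors (0.075, adjusted p = 0.664), which centre on the NAC genes themselves.

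The falls of ANAC007, ANAC010 and ANAC101 were called under every scaling run. ANAC076, under the filter, was not fitted with the other scalings. TMM moved the median of all genes at 26 d by -0.82 and DESeq2 size factors by -0.94, and the split of calls at 26 d, 39 higher and 7 lower with the reference genes, became 24 and 14 with TMM and 21 and 15 with DESeq2. Relative to the median of all genes, ANAC010 stood at -3.12, ANAC007 at -2.65 and ANAC101 at -2.34 at 26 d, at ranks 3, 5 and 6 from the lowest of 47. Within the letters A, B, C and D taken alone, the log2 change of ANAC007 at 26 d was -0.83, -1.50, -2.07 and -1.75, and that of ANAC010 was -2.11, -1.84, -1.83 and -2.24. For ANAC101 the letters gave -0.89, -1.07, -0.91 and -1.95, and for ANAC104 1.57, 1.28, 0.58 and 0.68. Each gene moved 1 way in all 4 letters, and a test of the difference between letters (edgeR's quasi-likelihood F test) was called for 0% of the 47 genes and passed an unadjusted p of 0.05 for 0 of the 4 members tested.

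The other xylem regulator in the probe set, ANAC083 (VNI2), binds VND7 and represses vessel genes. It rose at each age, with log2 changes of 0.45, 0.64 and 0.77 (adjusted p = 2.9e-05, 5.5e-10 and 1.9e-13, edgeR) and means of 6832 ± 828.6 (n = 10), 9694 ± 2463, 10947 ± 1667 and 11923 ± 1521 (n = 8 each) from 14 to 26 d. The 2 phloem NACs, ANAC045 and ANAC086, which act in the loss of the nucleus in sieve elements, fell as well. ANAC045 changed by -1.33, -2.10 and -2.92, and ANAC086, in the fit without a filter, by -1.46, -2.65 and -2.61. Col samples above the background limit numbered 0 of 8 at 26 d for ANAC045, and 0 of 8 at 22 and 26 d for ANAC086. Xylem activators and phloem NACs were thus lower together at 26 d, 4 of 4 and 2 of 2. In the fit without a filter, 9 of 49 genes were called lower at that age. The part of the phloem in the xylem result was not tested.

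The decline was seen in most of the mutant lines too. Within a line, all samples of 26 d lay below all samples of 14 d in 48 of 49 lines for ANAC007, 44 for ANAC101, 40 for ANAC010 and 33 for ANAC076. All samples of 26 d lay above those of 14 d for ANAC104 in 42 of 49 lines. Over all 2303 pairs of line and tested gene, 13.8% were below and 76.8% above in this way. At 18 d the lines below 14 d numbered 31 for ANAC007, 30 for ANAC101, 42 for ANAC010 and 17 for ANAC076, and ANAC104 was above in 18, where 14.7% of all pairs were below and 47.1% above. At 22 d they numbered 40, 41, 47 and 34, with ANAC104 above in 28, where 13.1% were below and 67.6% above. At 18 and 22 d ANAC010 was the member that separated in the most lines, and at 26 d it was ANAC007. The log2 ratio of the means at 26 and 14 d was negative for ANAC007 in every line but anac007, for ANAC101 in every line but anac101, and for ANAC104 positive in all 49 lines, from 0.15 in anac057 to 2.57 in anac079. For ANAC010 it was positive in 5 lines (anac010, anac052, anac017, anac042 and anac028), and for ANAC076 in anac076 and, at 0.0022, in anac016.

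In these ratios the line named after the gene stood above the other 48 for 4 of the 5 genes, for ANAC010 through 1 sample and for ANAC076 on counts at the background. This rank was not taken over all targets, so it is not read as particular to these genes. A low mean at 14 d in a line by itself raises the ratio. By another measure, the test of a change of the line effect between 14 and 26 d, 27.7% of the 47 tested targets were called. In anac007 the ratio of ANAC007 was 0.70, where the next line, anac017, had -0.39 and Col -1.47. The means in anac007 were 15.6 at 14 d and 25.3 at 26 d, against 76.3 and 27.6 in Col, so the high ratio goes with the low mean at 14 d. In anac010 the ratio of ANAC010 was 1.16, with 0.91 in anac052 and -1.95 in Col. The 26 d mean of anac010 rests on sample B2, with 39.0 normalised counts, as B1 had 7.30 and the samples of 14 d had 12.2 and 8.504. In anac052 sample B2 likewise had 107 at 26 d, while B1, with 28.8, lay below both samples of 14 d (41.6 and 30.7). In anac076 the ratio of ANAC076 was 1.30, where Col had -0.97, but its raw counts of 8 and 4 at 26 d and 4 and 3 at 14 d were all under the background limit, so it is a ratio of background counts. In anac101 the ratio of ANAC101 was 0.18, where Col had -1.18. ANAC104 in anac104 lay among the other lines.

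**Figure D2:**
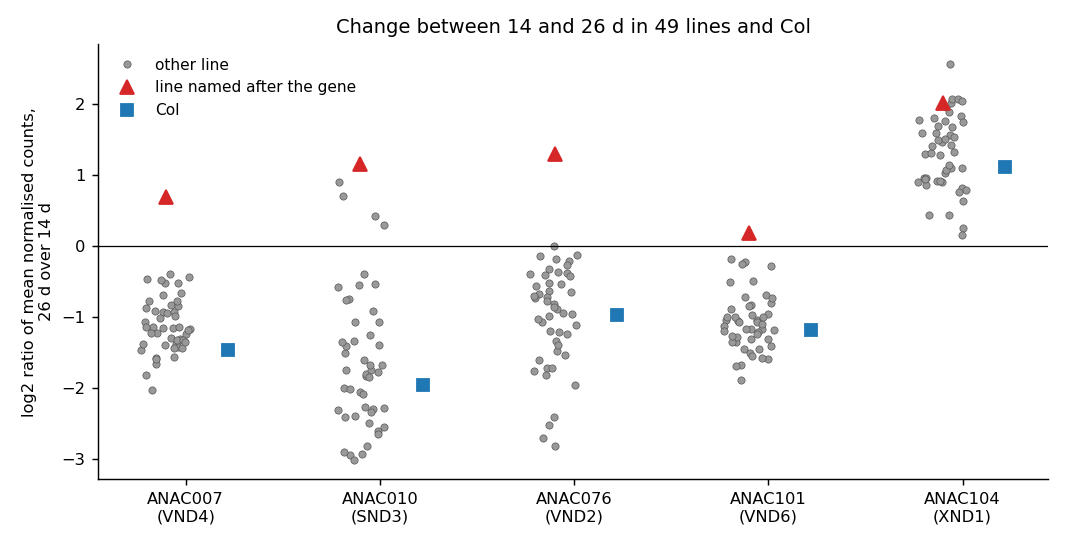
Log2 ratio of the mean normalised counts at 26 d over 14 d (y axis) for each xylem NAC (x axis). Grey points are lines, red triangles the line named after the gene and blue squares Col. The triangle lies above all 48 other lines for ANAC007, ANAC010, ANAC076 and ANAC101, that of ANAC010 resting on 1 sample of 26 d and that of ANAC076 on counts under the background limit.

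Each gene was next read in the line named after it, which checks the labels. Over the 4 tested genes and 4 ages, 4 of 16 tests were called lower and 1 was called higher. Over all targets and ages, 42% were called lower and 17.6% higher, 59.6% in all. All 4 reductions were at 14 or 18 d, where Col had the most transcript.

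ANAC007 was strongly reduced in young anac007 leaves. At 14 d it had 13.6 and 17.5 normalised counts in anac007, against 51.2 and 117 in Col of letter B (log2 change -2.30, SE 0.35, edgeR adjusted p = 1.7e-09). At 18 d it had 17.9 and 25.1 in anac007, against 52.6 and 54.5 in Col (-1.34, SE 0.36, adjusted p = 4.4e-04). At 22 d there were 30.4 and 29.6 in anac007 against 37.7 and 42.3 in Col, then 24.1 and 26.4 at 26 d in anac007 against 26.2 and 32.5 in Col. The groups were apart up to 22 d and overlapped at 26 d, and the changes of -0.30 and -0.17 at these ages were not called. The line effect differed between 26 and 14 d by 2.13 (SE 0.48, adjusted p = 1.2e-04), where 27.7% of the targets showed such a change.

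ANAC101 was also reduced at 14 d in its line. It had 15.1 and 8.24 in anac101, against 39.3 and 42.1 in Col of letter C (-1.80, SE 0.38, edgeR adjusted p = 9.3e-06). At 18 d it had 14.4 and 10.4 in anac101, against 18.3 and 21.4 in Col. At 22 d the values were 14.6 and 13.3 in anac101 against 10.1 and 14.4 in Col, followed at 26 d by 11.5 and 14.99 in anac101 against 20.6 and 23.0 in Col. The anac101 samples were thus below Col at 18 and 26 d without a call (-0.73 and -0.71, adjusted p = 0.140 and 0.127) and overlapped it at 22 d (0.17). The mean over ages changed by -0.77 on the log2 scale (adjusted p = 3.8e-04), where 76.6% of targets had a called mean, and the change between 26 and 14 d was not called (1.09, adjusted p = 0.138).

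ANAC076 was at the background in anac076. Its raw counts were 4 and 3, 1 and 5, 4 and 1, and 8 and 4 at the successive ages, none above the limit. The normalised counts were 3.57 and 1.87 at 14 d in anac076 against 16.6 and 16.7 in Col of letter C. In the fit without a filter the changes were -2.62 (adjusted p = 4.4e-06), -1.86 (adjusted p = 0.0105), -2.52 (adjusted p = 5.1e-05) and -0.43 (adjusted p = 0.530) from 14 to 26 d. At 26 d Col had come down to 6.57 and 10.3, which overlapped the 9.81 and 3.56 of anac076. The line effect differed between 26 and 14 d by 2.19 (SE 0.82, edgeR adjusted p = 0.0234, fit without a filter), with the anac076 counts at the background at both ages.

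ANAC010 in anac010 was lower at 14 d and higher in 1 sample at 26 d. At 14 d it had 12.2 and 8.504 in anac010, against 17.8 and 32.7 in Col of letter B (-1.36, SE 0.59, edgeR adjusted p = 0.0374). That call was lost under TMM, DESeq2, other reference scales, background subtraction and limma, and without Col B2 or either anac010 sample. At 18 d the values were 8.11 and 7.73 in anac010 against 4.57 and 19.6 in Col, then 5.78 and 6.11 at 22 d in anac010 against 7.36 and 7.95 in Col. At 26 d sample B1 had 7.30 and sample B2 had 39.0, against 5.26 and 9.17 in Col (1.55, SE 0.60, adjusted p = 0.0180). Without B2 the change was -0.073, so that call rests on 1 sample. The call was also lost with each age fitted by itself (1.54, edgeR adjusted p = 0.0876), with limma on the authors' log2 values (2.21, adjusted p = 0.0651) and without Col B1 (1.22, adjusted p = 0.125).

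With the main settings, ANAC104 was not called lower in the line labelled anac104. It had 237 and 221 in that line against 232 and 324 in Col at 14 d, and 160.4 and 220.8 in the line against 242 and 333 in Col at 18 d. It had 314 and 381 in the line against 208 and 214 in Col at 22 d, and 575 and 1285 in the line against 511 and 845 in Col at 26 d. The line samples lay below Col at 18 d, above it at 22 d and across it at 14 and 26 d. The log2 changes of -0.27, -0.55, 0.46 and 0.39 were not called (edgeR, adjusted p = 0.580, 0.264, 0.346 and 0.416). At 18 d the change stayed uncalled in 11 of 12 settings other than left-out samples, and the remaining setting called it lower. It ran between -0.72 and -0.39 over these settings. Where the insertion lies relative to the probe is not stated in the labels, and counts from a probe upstream of an insertion check nothing.

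**Figure D3:**
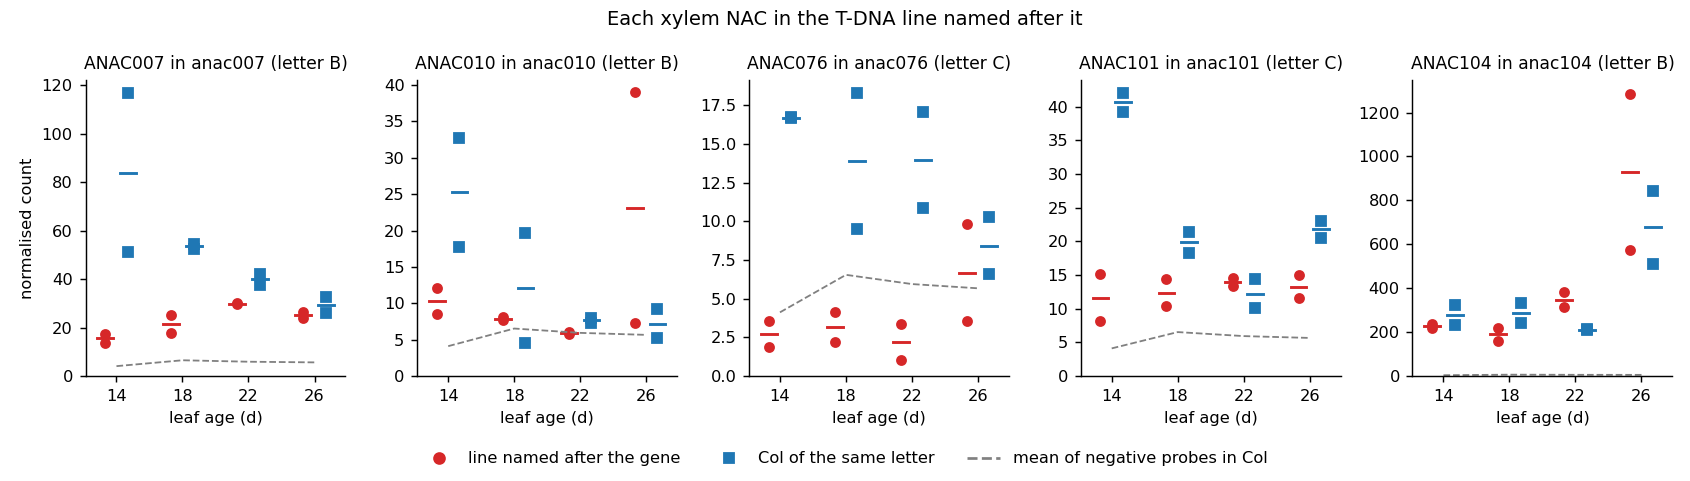
Normalised counts (y axis, linear, a scale per gene) against leaf age in days for each xylem NAC in the line named after it (red circles) and in Col of the same letter (blue squares), with bars at the means and a dashed line at the mean of the negative probes in Col. ANAC007, ANAC076 and ANAC101 are lower in their lines at 14 d, and ANAC104 overlaps Col at 14 d.

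In the other 48 lines calls were few and fell on ANAC010 at 26 d. Of the pairs of other line and tested gene, 1.42% were called at 14 d, 0.222% at 18 d, 0.133% at 22 d and 0.355% at 26 d. Of the pairs with a xylem NAC, 2 were called, both for ANAC010 at 26 d. At an unadjusted p under 0.05 at 26 d, the counts were 9 of 48 lines for ANAC010, 3 for ANAC104, 2 for ANAC007 and 1 for ANAC101, and 5 of 48 for ANAC076 in the fit without a filter. Over all tested genes 127 of 2256 pairs passed that threshold at 26 d.

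In the line labelled anac052, ANAC010 at 26 d had 28.8 in sample B1 and 107 in B2, against 5.26 and 9.17 in Col of letter B. Both were above Col, with raw counts of 18 and 115 (3.15, SE 0.57, edgeR adjusted p = 6.4e-05). Without B2 the change was 2.14 (adjusted p = 0.266), and with each age fitted by itself it was 3.13 (adjusted p = 0.0826), neither called. At 14 d the values were 41.6 and 30.7 in anac052 against 17.8 and 32.7 in Col, and at 18 d 13.3 and 27.1 in anac052 against 4.57 and 19.6 in Col. At 22 d they were 22.5 and 10.6 in anac052 against 7.36 and 7.95 in Col, from raw counts of 7 in each anac052 sample. The mean over ages was higher by 1.39 (SE 0.30, adjusted p = 8.4e-04), among 1.15% of other pairs called, and was not called without the second samples (1.103, adjusted p = 0.250). The change between 26 and 14 d was not called (2.68, adjusted p = 0.181).

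In the line labelled anac017, ANAC010 at 26 d had 64.9 in sample A1 and 6.45 in A2, against 5.53 and 7.21 in Col of letter A. Sample A2 lay within Col, so the change of 2.63 (SE 0.59, edgeR adjusted p = 0.00355) rests on A1, and without A1 it was 0.28 (adjusted p = 0.998). It was also not called with each age fitted by itself (2.62, edgeR adjusted p = 0.340) or with limma on the authors' log2 values (2.71, adjusted p = 0.628). Its line effect differed between 26 and 14 d by 2.94 (adjusted p = 0.0424), where 0.133% of other pairs were called, and that call was lost under TMM (2.65, adjusted p = 0.0928), DESeq2, background subtraction and limma. Neither line shows a loss of the gene it is named after. ANAC017 was higher in anac017 at each age, by 1.13 to 1.67 on the log2 scale, and ANAC052 was higher in anac052 by 0.71 to 1.08. ANAC050, the neighbour of ANAC052, was the gene nearly absent from anac052, with changes between -4.72 and -8.65.

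**Figure D4:**
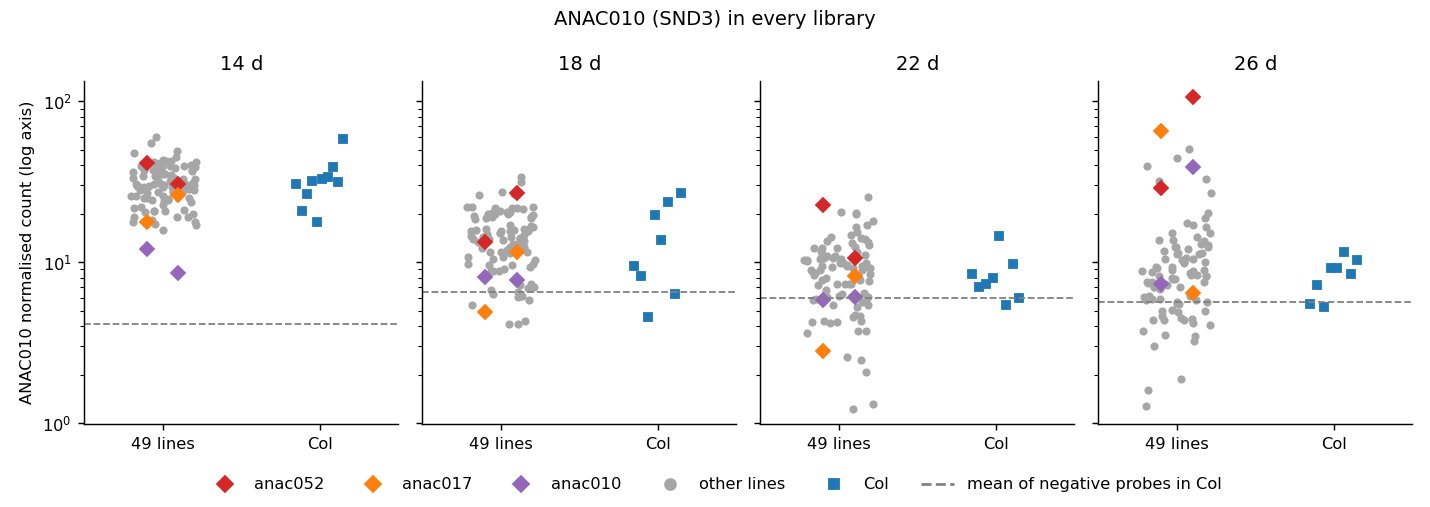
ANAC010 normalised counts (y axis, log scale) in every sample, with the 49 lines left of Col in a panel per leaf age. Coloured diamonds are anac052, anac017 and anac010, grey points the other lines, blue squares Col and the dashed line the mean of the negative probes in Col. At 26 d a tail of line samples reaches up to 107, whereas the highest Col sample has 11.5.

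High ANAC010 at 26 d appeared in both samples of some lines and in 1 sample of others. Of 100 line samples, 28 exceeded every Col sample of that age, where 0 of 8 Col samples were above the background limit. The same count was 13 for ANAC104 and is not given for all genes, so the 28 are not read as particular to ANAC010. Both samples of anac016, anac032, anac050, anac052 and anac053 were among the 28. Those of anac053 (raw counts of 11 and 13) were not above the limit, and in anac032 (10 and 12) 1 of 2 was. The lowest Col sample of 14 d, with 17.8, was exceeded by 12 line samples. The highest 6 were anac052 B2 with 107, anac017 A1 with 64.9, anac042 B2 with 50.5, anac028 B2 with 44.3, anac050 A2 with 39.3 and anac010 B2 with 39.0. Their sister samples had 28.8, 6.45, 6.197, 8.35, 13.7 and 7.30, so 4 of the 6 sisters stayed below the highest Col sample. ANAC007 and ANAC101 were within the Col range or below it in 5 of the 6. The exception was anac050 A2, with 41.0 for ANAC007 and 29.5 for ANAC101, above the highest Col samples of 35.1 and 23.0.

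ANAC104 was high in 5 of those 6 samples. They had 993 in anac017 A1, 1080 in anac042 B2, 1148 in anac028 B2, 1119 in anac050 A2 and 1071 in anac010 B2, all above the highest Col sample (845), and anac052 B2 had 691. Of the 100 line samples, 13 exceeded that Col sample. Over the 108 samples of 26 d, taken within letters, ANAC010 and ANAC104 had a Pearson r of 0.47 on the log2 scale, and ANAC010 had 0.49 with ANAC029 and 0.48 with ANAC047. These points share their reference genes and their letter, and the r is given as a description.

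**Figure D5:**
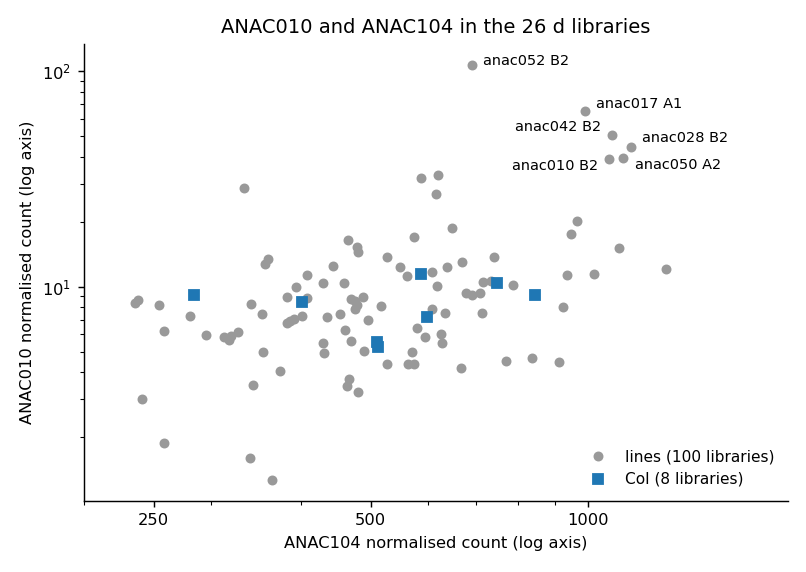
ANAC010 (y axis, log scale) against ANAC104 (x axis, log scale), both in normalised counts, in the 100 line samples (grey) and 8 Col samples (blue) of 26 d. Of the 6 samples highest in ANAC010, which are named, 5 lie to the right of every Col sample.

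The largest shifts of the other xylem NACs in lines where both samples lay beyond Col did not pass the test. Pairs of that kind made up 27.1%, 32.7%, 25.4% and 27.4% of all other pairs from 14 to 26 d. ANAC007 had 52.8 and 31.1 in anac101 at 26 d, against 16.4 and 22.9 in Col of letter C (1.08, edgeR adjusted p = 0.254). ANAC101 had 25.3 and 20.8 in anac061 at 22 d, against 7.36 and 8.94 in Col of letter B (1.098, adjusted p = 0.612). ANAC104 had 715 and 1022 in anac090 at 22 d, against 377 and 407 in Col of letter C (1.15, adjusted p = 0.746). In these 3 cases both line samples were above both Col samples without a call. Among the lower ones, ANAC101 had 34.7 and 24.3 in anac035 at 14 d, against 50.8 and 58.1 in Col of letter D (-0.88, adjusted p = 0.386). ANAC104 had 382 and 386 in anac056 at 26 d, against 511 and 845 in Col of letter B (-0.89, adjusted p = 0.790). ANAC010 had 13.7 and 39.3 in anac050 at 26 d, against 5.53 and 7.21 in Col of letter A (2.12, adjusted p = 0.0961), the nearest of them to a call. The other 9 shifts of this kind had adjusted p-values of 0.601 or more. They were log2 changes of 0.85 for ANAC007 in anac078 at 22 d, 1.01 for ANAC101 in anac096 at 22 d and 1.03 for ANAC104 in anac017 at 18 d on the higher side. On the lower side, ANAC007 had -0.87 in anac041 at 22 d and -0.66 in anac076 at 18 d, and ANAC010 had -1.26 in anac086 at 26 d and -0.89 in anac074 at 22 d. ANAC101 had -0.98 in anac019 at 26 d and ANAC104 had -0.89 in anac083 at 22 d. Of these falls, that of ANAC007 in anac041 came from raw counts of 1 and 34. In those of ANAC010 in anac086 and anac074 and of ANAC101 in anac019, 0 line samples were above the background limit.

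The mean line effects over the 4 ages were narrow for the 2 genes clear of background. For ANAC007 they spanned -0.23 in anac083 to 0.26 in anac002, and for ANAC104 -0.38 in anac056 to 0.35 in anac017, with 0 of 48 lines called and 0 at an unadjusted p under 0.05 (edgeR) for either. In anac083, the line of VNI2, the mean changes were -0.23 for ANAC007, 0.14 for ANAC010, -0.21 for ANAC101 and -0.18 for ANAC104, with 0.20 for ANAC076 in the fit without a filter, none called. ANAC083 was still counted in anac083. No sample of any line had fewer than 2999 normalised counts of it at 14 d or 5486 at 26 d, with Col means of 6832 and 11923. In anac007, where ANAC007 itself was reduced, the mean changes were -0.21 for ANAC010, -0.024 for ANAC101 and -0.23 for ANAC104, with 0.30 for ANAC076 in the fit without a filter (adjusted p = 0.942), none called. Larger mean changes were seen in other lines named after members, also not called. ANAC076 had 0.63 in anac101 (fit without a filter, edgeR adjusted p = 0.394) and ANAC101 had -0.46 in anac076 (edgeR adjusted p = 0.560).

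Across the 200 means of genotype and age, the NAC genes most like the activators were the phloem pair, ANAC028 and one another. ANAC007 had its highest Pearson r with ANAC045 (0.78), ANAC028 (0.74) and ANAC086 (0.73), and ANAC010 with ANAC045 (0.76), ANAC101 (0.73) and ANAC086 (0.72). ANAC101 had ANAC045 (0.75), ANAC010 (0.73) and ANAC086 (0.73), and ANAC076 had ANAC045 (0.61), ANAC007 (0.60) and ANAC028 (0.58). Within age and letter over the 434 samples these r were 0.10 to 0.21, far below those of the means, which share the course of age. ANAC104 was most like ANAC047 (0.88), AT3G12910 (0.84) and ANAC102 (0.83), and within age and letter the r were 0.58, 0.51 and 0.41.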

How the data were processed

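Raw nCounter counts per probe, deposited by the authors as 1 table per leaf age, entered the main tests as deposited. Leaf RNA was hybridised with a custom probe set per the labels' protocols; the counting software was not given in the sources used here. The authors also deposited log2 values, which set against the counts were a log2 of the scaled counts. The members and lists were chosen with earlier results of these data known.

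A single quasi-likelihood model of the 434 samples was made in edgeR 4.0.16 under R 4.3.3, with the reference mean as offset, a term for each combination of genotype and age, and the title letter nested in age. UBQ10 made up 80.6% of the reference counts. A gene needed a mean raw count over 12.6 (negative probes, mean plus 2 SD) to be tested, which left 47 of 49. P-values were Benjamini-Hochberg adjusted over genes for ageing, 188 target tests, and 2256 other pairs per age. Named by rule were the members, all called pairs, the 3 genes most like each member and, per tested member, the 2 largest rises and 2 largest falls with both samples of a line beyond Col. Alternatives were TMM, DESeq2 1.42.0, limma 3.58.1 on the authors' log2 values, other references, no filter, background subtraction, other covariates, a replicate block, single ages and left-out samples. The DESeq2 Wald test used edgeR's dispersions on DESeq2 size factors, because DESeq2's own dispersion search stopped at its upper limit. The fit was tested on simulated data. Of 345 pairs of samples of a group, 0 were identical or within sampling noise. Two-sided tests were used throughout.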

Additional observations from a re-analysis of the deposited data

Results flagged for a closer look

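A single sample stood apart from its group in 6 of 40 groups tested, by its gap to the nearest other sample relative to the range, and chance gives about 1 in 20. ANAC007 had 86.9 normalised counts in anac092 B2 at 18 d, and ANAC101 had 4.68 in anac092 B1 at 26 d. ANAC104 had 677 in anac092 B2 at 26 d and 873 in Col A2 at 22 d, the sample behind the large SD of Col at that age. ANAC010 had 58.1 in Col D2 at 14 d, and ANAC076 had 17.1 in Col C2 at 22 d.

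The effect of a line differed between 26 and 14 d, by edgeR's test of that difference, in 3 cases among the 4 genes that passed the filter on low counts. ANAC010 changed by 2.94 in anac017, ANAC007 by 2.13 in anac007 and ANAC010 by 2.92 in anac010, all on the log2 scale. The anac017 value was 0.41 without the first sample of each line and 3.81 without the second, neither called. Without the second sample the anac010 value was 1.35, also not called, while that of ANAC007 stayed called at 2.04 and 2.34. In the fit without a filter ANAC076 changed by 2.19 in anac076 (adjusted p = 0.0234), from counts at the background in that line.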

How the results depend on the processing

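Of 927 recomputed values over 58 settings, 876 kept their direction and their side of the threshold or, for counts, stayed within 1.5 times. The 9 called falls of ANAC007, ANAC010 and ANAC101 over Col age held under all alternatives run, with 10 calls whichever Col sample was left out. At 26 d ANAC007 ran between -2.45 and -1.27, ANAC010 between -3.69 and -1.74 and ANAC101 between -2.13 and -0.96. ANAC104 at 22 d, not called, turned to -0.30 with TMM and -0.36 with DESeq2. Apart from left-out samples, it kept its direction and stayed uncalled in 8 of 12 settings. The remaining settings called the rise, and the highest value over the 12 was 0.49. The 4 calls in the lines named after the genes became 2 without the first sample of each line (2 to 4 over left-out samples). The 2 calls in other lines became 6 with no letter covariate, 0 with each age fitted by itself, and 1 without the first or the second sample of each line (1 to 2 over left-out samples). The call averaged over ages became 0 without the second sample (0 to 1). The 3 changes between 14 and 26 d became 5 with no letter covariate and 1 without the second sample (1 to 3). Uncalled values that changed sign were ANAC010 in anac010 at 18 d (-0.94 to 0.16 over left-out samples), ANAC101 in anac101 at 22 d (-0.058 to 0.45, and -0.097 with limma), and ANAC104 in anac104 at 22 d (-0.062 with no letter covariate) and at 26 d (-0.31 to 0.85). The called ANAC010 in anac010 at 26 d ran between -0.073 and 2.33 over left-out samples. The causes were not tested.

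With letter and number as a replicate block, the counts were 10, 4, 3, 1 and 3 for ageing, named lines, other lines, their mean over ages and the change with age. The labels do not say that numbers pair samples, and deviations of same-numbered samples had a median r of 0.31, over 0.1 in 145 of 200 cases. Counts near the negative probes limit ANAC010, ANAC076 and ANAC101 after 14 d.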
